A study of Rattus norvegicus with 9 samples.

Results

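The genes described are 10 transcription factors, enzymes and matrix proteins of the bone and cartilage lineages, chosen by symbol from the 35362 genes counted. The osteogenic genes were Runx1, Runx2, Sp7, Alpl, Bglap and Ibsp, and the chondrogenic genes were Sox9, Sox5, Sox6 and Acan. They were measured by RNA-seq in adipose-derived stem cells grown from 3 fat depots of male Sprague Dawley rats aged 6 weeks. SASCs came from subcutaneous fat of the groin, PASCs from perirenal fat and EASCs from epididymal fat, with 3 samples in each group. No group carried a transgene or received a drug. All were grown in medium with 10% fetal bovine serum and taken at passage 3, and the growth protocol names no medium that induces bone or cartilage. The cells were those that attached to the dish after collagenase digestion of the fat, and no sort is named. By the extraction protocol the replicates of a group were wells of culture plates, and how many rats stand behind the wells of a depot is not stated, so p-values measure the spread between these samples, which may be technical.

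Mesenchymal stem cells can form bone, cartilage and fat cells, and each path is entered through its own transcription factors. Runx2, with its DNA-binding partner Cbfb, starts the osteoblast program, Sp7 (osterix) acts after it, and Alpl, Ibsp and Bglap are products of osteoblasts that deposit mineral. Sox9 starts the chondrocyte program and acts in it together with Sox5 and Sox6, and Acan (aggrecan) and Col2a1 are among the targets of Sox9. BMP ligands are inputs to both programs. A gene read in dividing, uninduced cells says which of these genes were transcribed there, not that bone or cartilage was formed.

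The regulators Runx1, Runx2 and Sox9 were read in every sample, whereas Alpl, Bglap and Ibsp were at or close to 0. Sox9 was 4.83-fold higher in PASCs and 6.62-fold higher in EASCs than in SASCs. Sp7, with 11 counts in all of SASCs, was 4.83-fold and 5.73-fold higher, and Acan was read in both visceral groups and in none of the SASCs samples. Sp7 and Acan entered the test only through the visceral groups, as given below, so their differences from SASCs are a description. Sox5 was 6.97-fold lower in PASCs and 5.10-fold lower in EASCs than in SASCs. Runx1 and Runx2 were lower than in SASCs by less than 2-fold, although Runx2 in PASCs overlapped SASCs.

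Levels are CPM, the count of a gene relative to the size of its library, after TMM scaling, which sets the samples on a common scale by the genes that change least, and levels of different genes are compared as FPKM, which divides CPM by gene length in kilobases. A differentially expressed gene (DEG) differed by more than 2-fold at an adjusted p-value below 0.05 in edgeR's quasi-likelihood test, adjusted over the 14770 genes tested. Of the 10 genes, 6 were tested, namely Runx1, Runx2, Sp7, Sox9, Sox5 and Acan. The filter on low counts asks for 3 samples at 0.403 CPM or more before TMM scaling. Runx1, Runx2, Sox9 and Sox5 met this in all 3 groups, whereas Sp7 and Acan met it only through PASCs and EASCs, with no SASCs sample at that level. A gene that passes in this way has to differ from SASCs, so the differences of Sp7 and Acan from SASCs are given as a description. Alpl, Bglap and Sox6 were read too rarely for the test, and Ibsp had 0 counts in all samples. Total counts ranged from 17591916 to 30299032 per sample, and 3 counts correspond to 0.104 to 0.159 CPM after TMM scaling. The share of counts in ribosomal RNA genes was 10.4 to 15.5% for SASCs, 22.4 to 32.9% for PASCs and 15.9 to 40.3% for EASCs. Without TMM, the median log2 fold change of all genes tested was -0.39 in EASCs and -0.33 in PASCs against SASCs, and -0.077 in EASCs against PASCs, whereas with TMM all 3 medians lay within 0.01 of 0.

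The cells carried the markers of mesenchymal stem cells. All 7 genes of that list were tested, but they did not move together. Pdgfra was at 1517 to 1585 CPM for SASCs, 266 to 298 for PASCs and 226 to 243 for EASCs, and Itgb1 at 1027 to 1055, 1765 to 1908 and 2872 to 2998 CPM. The summed level of the 7 genes was 4132 to 4259 CPM for SASCs, 3782 to 3958 for PASCs and 4956 to 5025 for EASCs. Markers of other cells also differed between the depots. The 4 smooth muscle genes had a summed level of 86.3 to 91.2 CPM for SASCs, 1080 to 1119 for PASCs and 2911 to 2949 for EASCs. The 5 mesothelial genes reached a sum of 17.4 to 19.0 CPM for SASCs, 90.9 to 97.9 for PASCs and 123 to 135 for EASCs. Within that list Krt19 was at or near 0 everywhere, and Upk3b was near 0 in SASCs. Msln and Upk3b overlapped between PASCs and EASCs. The sum of the 6 leukocyte genes was ordered the same way, with 40.6 to 42.6 CPM for SASCs, 61.9 to 64.0 for PASCs and 92.8 to 94.6 for EASCs. Of these genes, Cd14 overlapped between PASCs and EASCs, and Emr1 between SASCs and PASCs. The sum of the 4 adipocyte genes ran the other way, with 55.3 to 60.7 CPM for SASCs, 13.5 to 14.4 for PASCs and 5.63 to 6.20 for EASCs, although Lep had at most 6 counts in a sample and overlapped between the groups. The 4 endothelial genes were highest in SASCs at 38.8 to 41.6 CPM, lowest in PASCs at 11.0 to 13.2 CPM and at 26.7 to 29.7 CPM for EASCs, although Tek was lowest in SASCs (2.46 to 2.68 CPM) and Cdh5 overlapped between SASCs and EASCs. Of the 4 osteoclast genes 3 were in the table, where Calcr and Dcstamp had 0 counts in all samples, and the remaining gene, Acp5, was at 3.56 to 5.98 CPM for SASCs, 5.24 to 6.39 for PASCs and 5.77 to 7.24 for EASCs. The single marker genes named here were chosen after their values were seen. The part of these cell types in the results was not tested. In bulk RNA, fewer cells of a type and less RNA per cell cannot be told apart.

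**Figure D1:**
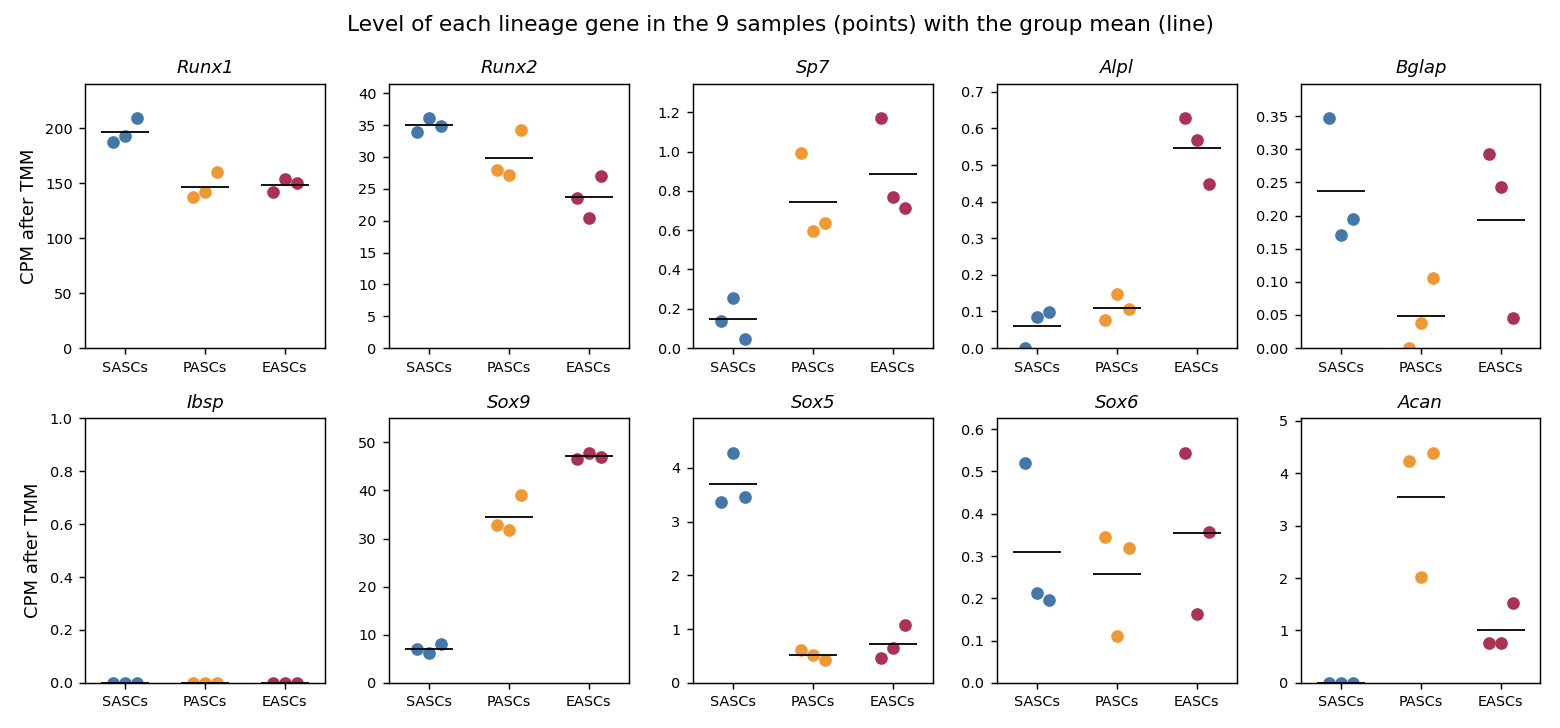
Level of each of the 10 genes in CPM after TMM scaling (y axis, a scale of its own for each gene, starting at 0) in SASCs, PASCs and EASCs (x axis), with a point for each of the 3 samples and a line at the group mean. Sox9, Sp7 and Acan lie above all SASCs samples in both visceral groups, Sox5 lies below them, and Ibsp is at 0 in all 9 samples.

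The RUNX factors were the most strongly transcribed of the osteogenic genes. Runx1, a factor best known from blood formation that is also made in skeletal progenitors, lies on the minus strand at chr11:32765147-32860628 of rn6. It was read at 187, 193 and 209 CPM in SASCs, at 137, 142 and 160 CPM in PASCs and at 142, 154 and 150 CPM in EASCs. The SASCs samples were the 3 highest of the 9, and the visceral groups overlapped each other. The log2 fold change was -0.40 in EASCs (SE 0.0604, adjusted p = 1.60e-06) and -0.43 in PASCs (SE 0.0605, adjusted p = 5.74e-07) against SASCs. Between EASCs and PASCs the estimate was 0.027, and 2 standard errors to either side span -0.094 to 0.15 (adjusted p = 0.785).

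Runx2, the factor that osteoblasts require, lies on the plus strand at chr9:18564748-18773092 of rn6. Its level was 33.9, 36.1 and 34.9 CPM in the SASCs samples, 27.9, 27.1 and 34.3 in PASCs and 23.5, 20.5 and 27.0 in EASCs. EASCs were below all samples of both other groups, whereas the highest PASCs sample lay within the range of SASCs. The log2 fold change against SASCs was -0.56 in EASCs (SE 0.0938, adjusted p = 7.04e-06) and -0.24 in PASCs (SE 0.0923, adjusted p = 0.0245). EASCs were also lower than PASCs, by -0.32 on the log2 scale (SE 0.0949, adjusted p = 0.00964). The last 2 values depended on single samples. The difference of PASCs from SASCs missed the threshold without SASCs replicate 2 (adjusted p = 0.075), PASCs replicate 1 (0.107) or PASCs replicate 2 (0.147), and the difference of EASCs from PASCs missed it without PASCs replicate 3 (0.0993) or EASCs replicate 2 (0.0928).

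The Runx2 row shares 40043 bases with Supt3h, a gene on the opposite strand with 100 to 256 counts per sample. Supt3h was itself lower in EASCs (log2 fold change -0.81, adjusted p = 1.01e-05) and PASCs (-0.66, adjusted p = 1.33e-04) than in SASCs. Whether reads were counted by strand is not given in the sources used here, so reads of both genes cannot be told apart in the shared stretch. Runx2 had 506 to 975 counts per sample. Cbfb, the partner of the RUNX factors and named after its values were seen, was lower in EASCs than in SASCs (-0.42, adjusted p = 7.48e-06), and its estimate in PASCs was -0.067 (adjusted p = 0.400).

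RefSeq promoters of the GRCr8 build were at hand for 7 of the 10 genes, all but Sp7, Sox9 and Sox5. The letters TGTGGT, or ACCACA on the other strand, are the core that RUNX proteins bind. They were looked for in the 250 bases before each start site and occur in 14.5% of all 33469 promoters of that length. They were found in the first of the 2 Runx2 promoters (plus strand, chr9:23664808-23665057), 76 bases before the start, and in the Bglap promoter (minus strand, chr2:176137319-176137568), 118 bases before it. These promoters are printed 5′ to 3′ because they belong to the factor and to the osteocalcin gene, its textbook target, with the RUNX letters in capitals.
Runx2: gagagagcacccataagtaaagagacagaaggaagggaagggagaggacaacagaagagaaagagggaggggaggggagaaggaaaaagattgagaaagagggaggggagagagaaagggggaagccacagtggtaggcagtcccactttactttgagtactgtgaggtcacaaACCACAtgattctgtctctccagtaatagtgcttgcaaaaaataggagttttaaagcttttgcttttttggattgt
Bglap: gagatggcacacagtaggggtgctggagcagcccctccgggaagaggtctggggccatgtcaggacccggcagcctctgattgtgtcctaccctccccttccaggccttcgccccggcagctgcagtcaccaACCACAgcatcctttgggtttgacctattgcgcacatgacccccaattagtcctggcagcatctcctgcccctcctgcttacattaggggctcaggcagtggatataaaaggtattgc
The other 6 promoters searched (Runx1, the second of Runx2, Alpl, Ibsp, Sox6 and Acan) did not hold these letters in this window. The SOX letters ACAATG, or CATTGT on the other strand, occur in 11.1% of all promoters and were found once in that of Ibsp and at 2 places in that of Sox6. No match of one set overlapped a match of the other. Such matches describe the letters and not a site in use.

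Sp7, which acts after Runx2 and commits cells to the osteoblast fate, was transcribed at a low level and differed in the opposite direction to Runx2. Its row lies on the minus strand at chr7:143958520-143967484 of rn6. In SASCs it was read at 0.139, 0.255 and 0.0488 CPM, in PASCs at 0.994, 0.598 and 0.635 CPM and in EASCs at 1.17, 0.770 and 0.715 CPM. Each visceral sample was above each SASCs sample, and the visceral groups overlapped. SASCs held 11 counts in all, against 54 in PASCs and 63 in EASCs. The fitted log2 difference from SASCs was 2.52 in EASCs (SE 0.551) and 2.27 in PASCs (SE 0.562). With no filter, so that entry into the test did not depend on the visceral samples, edgeR gave Sp7 an adjusted p of 6.17e-05 in EASCs and of 4.25e-04 in PASCs against SASCs. The same fit gave Sox9 in EASCs against SASCs an adjusted p of 6.44e-177, against 1.64e-19 in the reported fit. Its p-values are therefore not on the scale of the reported test, and the difference of Sp7 from SASCs stays a description. With a filter of 1 CPM in 3 samples Sp7 was not tested. Between EASCs and PASCs it was 0.24, with a span of 2 standard errors from -0.62 to 1.11 (adjusted p = 0.722).

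Alpl, Bglap and Ibsp were close to absent. Alpl, the tissue-nonspecific alkaline phosphatase whose activity marks osteogenic induction in culture (minus strand, chr5:156086496-156141513), was read at 0, 0.0848 and 0.0976 CPM in the SASCs samples, 0.0765, 0.149 and 0.106 in PASCs and 0.628, 0.567 and 0.447 in EASCs. EASCs stood above both other groups with 39 counts in all, against 4 in SASCs and 8 in PASCs. The ratio of the summed counts, scaled for library size, was 10.0 for EASCs to SASCs (95% exact interval 3.61 to 38.6, counting error only) and 4.93 for EASCs to PASCs (2.27 to 12.2). An exact two-sided permutation test of 3 samples against 3 cannot give a p-value under 0.1, which it gave for both of these comparisons (0.159 each after adjustment over the 27 comparisons of the 9 genes with counts). When the filter on low counts was dropped, edgeR gave Alpl a log2 fold change of 3.17 in EASCs against SASCs (adjusted p = 0.00313) and of 2.25 against PASCs (adjusted p = 0.0549). These p-values come from the same unfiltered fit as those of Sp7 and are not on the scale of the reported test. Of the samples, 2 of EASCs and none of the other groups reached the minimum of the filter.

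Bglap, which encodes osteocalcin, the hormone-like protein of mature osteoblasts, occupies 6677 bases on the minus strand at chr2:187741770-187748446. It was read at 0.347, 0.170 and 0.195 CPM in the SASCs samples, 0, 0.0374 and 0.106 in PASCs and 0.293, 0.243 and 0.0447 in EASCs. PASCs were below all SASCs samples, and EASCs overlapped both groups. PASCs held 3 counts against 18 in SASCs, a ratio of 0.169 (95% exact interval 0.0319 to 0.579, counting error only), and without the filter the adjusted p of edgeR was 0.108. Ibsp, the bone sialoprotein gene (minus strand, chr14:6801200-6813945), had 0 counts in each group, which allows up to 0.0412 CPM in the SASCs samples, 0.0418 in PASCs and 0.0423 in EASCs at a limit of 3 counts per group.

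Sox9 was the chondrogenic gene with the highest level. It lies on the plus strand at chr10:101288354-101294030 of rn6. Its level was 7.09, 6.28 and 8.05 CPM in the SASCs samples, 32.8, 31.7 and 39.0 in PASCs and 46.6, 47.8 and 46.9 in EASCs. The 3 groups did not overlap, and the samples of EASCs were within 1.20 CPM of each other. Against SASCs the log2 fold change was 2.73 in EASCs (SE 0.0963, adjusted p = 1.64e-19) and 2.27 in PASCs (SE 0.0977, adjusted p = 1.47e-17). EASCs exceeded PASCs by 0.45 on the log2 scale (SE 0.0816, adjusted p = 7.38e-05), a difference that missed the threshold when total counts were used without TMM (0.38, adjusted p = 0.125). The summed smooth muscle, mesothelial and leukocyte markers given above had the same order of depots as Sox9.

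Sox5, a partner of Sox9 that lacks a domain to activate transcription of its own, was highest where Sox9 was lowest. The gene lies on the minus strand at chr4:178062267-178441669 of rn6. It was read at 3.37, 4.28 and 3.46 CPM in the SASCs samples, 0.612, 0.523 and 0.423 in PASCs and 0.460, 0.648 and 1.07 in EASCs. Every SASCs sample was above every visceral sample, and PASCs and EASCs overlapped. The log2 fold change against SASCs was -2.35 in EASCs (SE 0.304, adjusted p = 1.24e-07) and -2.80 in PASCs (SE 0.319, adjusted p = 1.27e-08), and between EASCs and PASCs it was 0.45, with a span of 2 standard errors from -0.32 to 1.22 (adjusted p = 0.416). With limma on log2(FPKM + 1) the values of Sox5 were -0.44 in EASCs and -0.48 in PASCs against SASCs, under 2-fold, so that it was no DEG on that scale, which understates the change of low genes.

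Sox6, the close relative of Sox5 (plus strand, chr1:185673177-186185254), did not share this pattern. It was read at 0.521, 0.212 and 0.195 CPM in the SASCs samples, 0.344, 0.112 and 0.318 in PASCs and 0.544, 0.162 and 0.358 in EASCs. All 3 groups overlapped, with 18 to 25 counts in each. The ratio of summed counts to SASCs was 1.07 in EASCs (95% exact interval 0.586 to 1.96) and 0.761 in PASCs (0.389 to 1.46), so that a difference of the size seen for Sox5 lies outside these intervals, which cover counting error only.

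Acan, the large proteoglycan of cartilage, lies on the plus strand at chr1:140762758-140824441 of rn6. It had 0 counts in all 3 SASCs samples, 111, 54 and 83 counts in PASCs and 18, 19 and 34 counts in EASCs. This corresponds to 4.24, 2.02 and 4.39 CPM in PASCs and to 0.753, 0.770 and 1.52 CPM in EASCs. Against the limit of 3 counts over the group, PASCs were at least 83.9-fold higher and EASCs at least 24.3-fold higher than SASCs. A part of these differences was required by the filter on low counts, which a gene at 0 in SASCs can pass only through the visceral groups. EASCs were lower than PASCs in all samples, by -1.80 on the log2 scale (SE 0.348, adjusted p = 2.21e-04). The order of the depots for Acan was thus PASCs, EASCs, SASCs, whereas for Sox9 it was EASCs, PASCs, SASCs.

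**Figure D2:**
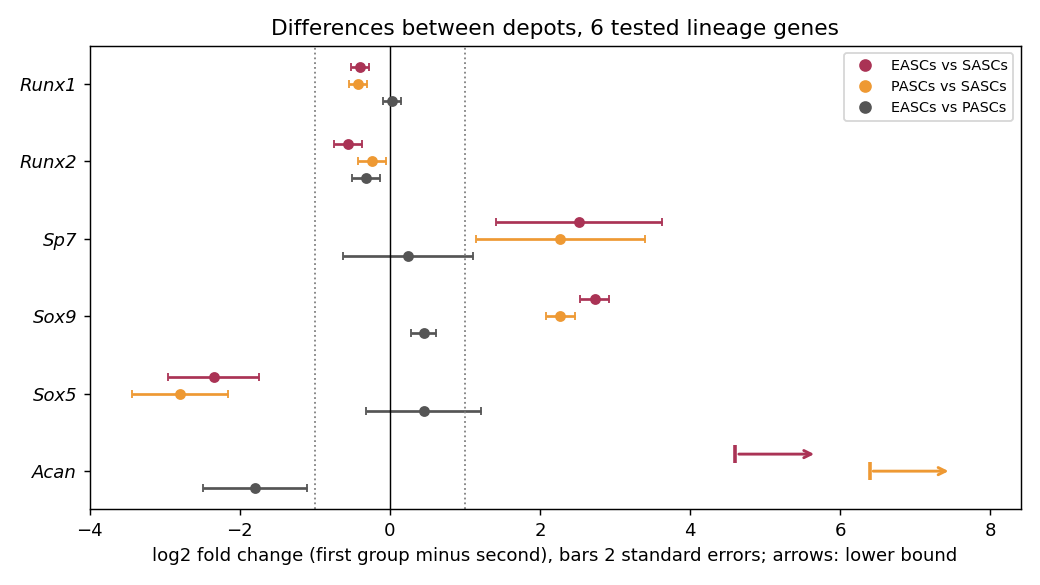
Log2 fold change (x axis, first group minus second) of the 6 genes tested (y axis) in EASCs against SASCs, PASCs against SASCs and EASCs against PASCs. Points are edgeR estimates with bars of 2 standard errors, arrows start at the lower bound of Acan against SASCs, and dotted lines mark a 2-fold change. Sp7, Sox9 and Acan lie beyond 2-fold on the higher side and Sox5 on the lower side in both comparisons with SASCs, and the values of EASCs against PASCs lie between the lines except for Acan.

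Counted over the genes tested, all 6 passed the adjusted p-value in EASCs against SASCs, where 69.7% of all genes did, and 4 were DEGs, 3 higher and 1 lower. Of all genes, 13.5% were DEGs on the higher side and 14.2% on the lower side. In PASCs against SASCs the numbers were again 6 passed, against 69.2% of all genes, with 3 DEGs higher (12.0% of all genes) and 1 lower (14.9%). In EASCs against PASCs, 3 of 6 passed (30.7% of all genes), none was a DEG on the higher side (5.19%) and 1, Acan, was a DEG on the lower side (2.20%). Both comparisons with SASCs share the SASCs samples. In each of these comparisons 2 of the 3 higher DEGs, Sp7 and Acan, passed the filter only through the visceral groups, so that these counts are partly set by the filter and nothing is read from them.

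Per gene length, the order of the genes differed between the depots. In SASCs it was Runx1 (25.1 ± 1.48 FPKM, SD, n = 3), Runx2 (5.77 ± 0.180), Sox9 (1.70 ± 0.211) and Sox5 (0.492 ± 0.0667), with no overlap between neighbours in this order. Below them, Bglap (0.0670), Sp7 (0.0601), Sox6 (0.0235) and Alpl (0.0213 FPKM) overlapped their neighbours. In PASCs Sox9 (8.20 ± 0.926 FPKM) stood in the second place behind Runx1 (18.7 ± 1.54) and ahead of Runx2 (4.91 ± 0.653). Acan (0.512 ± 0.192) and Sp7 (0.303 ± 0.0892 FPKM) came next and overlapped. In EASCs the order was Runx1 (19.0 ± 0.738 FPKM), Sox9 (11.2 ± 0.146), Runx2 (3.91 ± 0.537) and Sp7 (0.361 ± 0.102), each apart from the next. They were followed by Alpl (0.192), Acan (0.146), Sox5 (0.0964) and Bglap (0.0546 FPKM), which overlapped their neighbours.

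**Figure D3:**
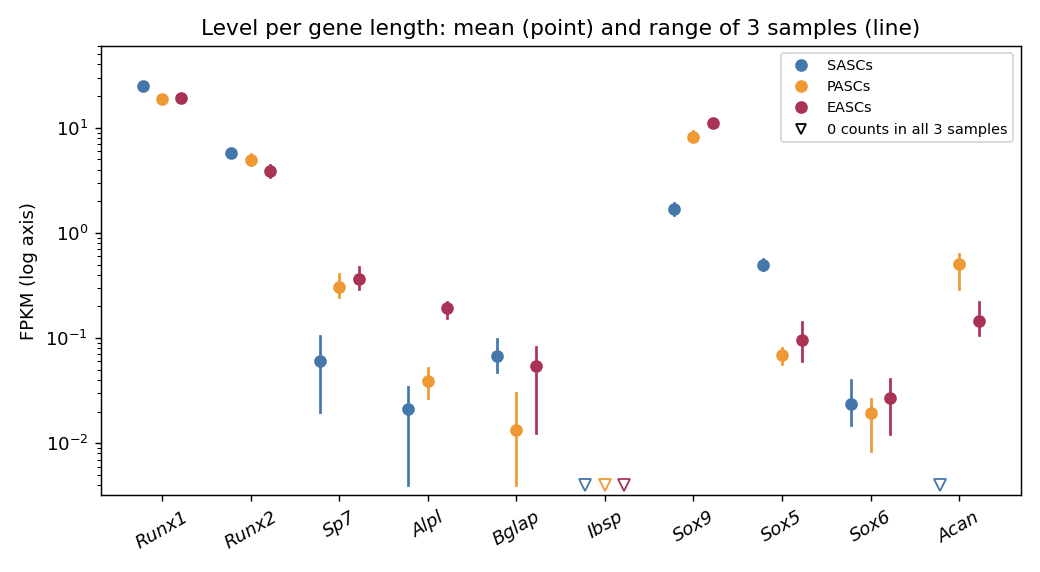
Level per gene length in FPKM (y axis, log axis) of the 10 genes (x axis) in SASCs, PASCs and EASCs, with a point at the mean and a line over the range of the 3 samples. A line that ends at the height of the triangles reaches a sample with 0 counts, and triangles mark groups with 0 counts. Sox9 lies below Runx2 in SASCs and above it in PASCs and EASCs.

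Ratios within a sample do not depend on library size, and 5 of them were formed after the levels had been seen. The FPKM of Sox9 was 25.1 to 33.2% of that of Runx2 for SASCs, 164 to 170% for PASCs and 250 to 336% for EASCs. Sox9 thus lay below Runx2 in every SASCs sample and above it in every visceral sample. Equal FPKM of different genes is no measure of a balance between lineages, and the Runx2 level may hold reads of Supt3h. Sox5 reached 24.0 to 38.1% of Sox9 in SASCs and between 0.551 and 1.28% in the visceral samples. Sp7 stood at 1.03% ± 0.699 (SD, n = 3) of Runx2 in SASCs, 6.28% ± 2.23 in PASCs and 9.37% ± 2.88 in EASCs, and PASCs and EASCs overlapped.

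Acan, a target of Sox9, was 3.85 to 7.83% of Sox9 in PASCs and 0.976 to 1.96% in EASCs, with no overlap. Runx2 stayed within 17.2 to 27.7% of Runx1 in all 9 samples and was above the others in PASCs (26.2% ± 1.54, SD, n = 3). With 3 samples a group, the exact two-sided permutation p-value of each ratio that did not overlap was 0.1, the smallest possible, and 0.125 after adjustment over the 15 comparisons.

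**Figure D4:**
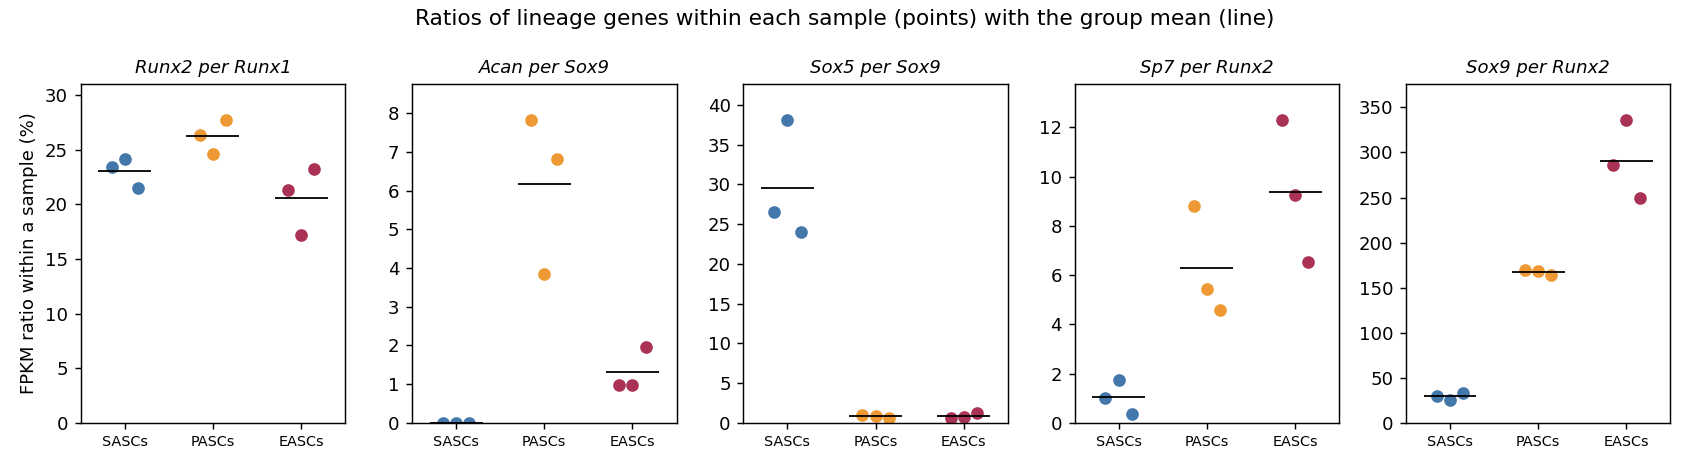
Ratio of the FPKM of one gene to that of another within each sample, in percent (y axis, starting at 0), for 5 pairs of genes in SASCs, PASCs and EASCs (x axis), with a point for each sample and a line at the mean. The Sox9 to Runx2 ratio is below 100% in the 3 SASCs samples and above 100% in the 6 visceral samples, and the Sox5 to Sox9 ratio falls to about 1%.

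The genes whose log2 CPM followed each regulator most closely over the 9 samples were searched among 10166 genes. For Sox9 they were Large (Pearson r = 0.998), P4ha1 (0.997) and Arpc2 (0.997), for Runx1 Zfp113 (0.989), Kmt2c (0.986) and Nfat5 (0.985), and for Runx2 Zfp260 (0.966), Utp14a (0.958) and Spef1 (0.954). The 9 points fall into 3 depots, which such values largely follow. Large had the same order of depots as Sox9 with smaller steps from SASCs (log2 fold changes of 2.09 in EASCs and 1.63 in PASCs), at means of 55.9 CPM in the SASCs samples, 173 in PASCs and 238 in EASCs.

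Around these genes, 4 lists of the same pathways were followed. Of the 12 further osteogenic regulators, 9 were tested, and 2 were higher (Dlx5 and Msx1) and 2 lower (Dlx3 and Twist1) in EASCs than in SASCs as DEGs. In PASCs 1 was higher (Dlx5) and none was lower. The shares of all genes were 13.5% higher and 14.2% lower in EASCs and 12.0% and 14.9% in PASCs, which hold for the 4 lists. The medians were -0.42 and -0.067, beside 0.0061 and -0.0082 for all genes. Dlx5, a homeobox factor that can activate Runx2 and Sp7, was read at 0.0656 ± 0.0637 CPM (SD, n = 3) in SASCs, 2.26 ± 0.566 in PASCs and 5.13 ± 0.106 in EASCs. It passed the filter only through the visceral groups, with 5 counts in all of SASCs, so its difference from SASCs (6.12 in EASCs and 4.93 in PASCs on the log2 scale) is a description. EASCs exceeded PASCs in Dlx5 by 1.19 (adjusted p = 2.69e-04). Dlx3, of the same family, was lower in EASCs than in both other groups, by -2.22 against SASCs (adjusted p = 3.34e-10) and by -2.49 against PASCs (adjusted p = 1.47e-10). Msx1, a further homeobox factor of skeletal progenitors, was higher in EASCs (1.25, adjusted p = 1.54e-08), and in PASCs its value of 0.86 passed the test below 2-fold (adjusted p = 9.43e-06). Twist1, which restrains Runx2 and was named after its values were seen, was 62.4 ± 2.44 CPM in SASCs, 48.9 ± 0.892 in PASCs and 27.2 ± 0.792 in EASCs (log2 fold change of EASCs to SASCs -1.20, adjusted p = 2.50e-15).

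Of 18 genes of bone matrix and mineral, 12 were tested. In EASCs against SASCs 1 was a DEG on the higher and 1 on the lower side, and in PASCs 1 and 2, so that 1 of 12 stands beside 13.5% and 14.2% of all genes in EASCs. The medians were 0.13 and 0.36, beside 0.0061 and -0.0082 for all genes. Enpp1, which makes the mineralization inhibitor pyrophosphate, rose from 9.28 ± 0.330 CPM (SD, n = 3) in SASCs to 115 ± 3.42 in PASCs (log2 fold change 3.64, SE 0.0673, adjusted p = 1.38e-25) and 122 ± 1.77 in EASCs (3.72, SE 0.0673, adjusted p = 6.15e-26). Mgp, matrix Gla protein, which also inhibits mineralization, fell from 207 ± 22.8 CPM in SASCs to 45.5 ± 0.688 in EASCs (log2 fold change -2.18, adjusted p = 3.27e-20) and further to 9.35 ± 1.06 in PASCs (-4.46, adjusted p = 3.08e-25). Pth1r, the receptor of parathyroid hormone, was lower in PASCs (-1.10, adjusted p = 2.89e-10) and by less than 2-fold in EASCs (-0.28, adjusted p = 0.0121). Not all products of osteoblasts were low. Named after their values were seen, Col1a1, the main collagen of bone and of many connective tissues, was at 10692 ± 489 CPM in SASCs, 19124 ± 2176 in PASCs and 20321 ± 1432 in EASCs, Sparc (osteonectin) at 4375 ± 76.7, 5474 ± 78.7 and 6649 ± 132, and Spp1 (osteopontin) at 31.8 ± 2.21, 54.9 ± 1.01 and 34.7 ± 4.77 CPM. Mepe, Omd and Tnfsf11, named for their counts, had 0 counts in all samples.

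The cartilage matrix list moved in both directions. Of its 19 genes 12 were tested, with 6 DEGs higher and 4 lower in EASCs and 5 higher and 5 lower in PASCs, beside 13.5% and 14.2% of all genes in EASCs and 12.0% and 14.9% in PASCs. The medians were 0.94 and -0.29, beside 0.0061 and -0.0082 for all genes. Of the higher DEGs, Matn3 and Comp passed the filter only through the visceral groups, and of the lower DEGs 2 would not have passed without SASCs, so these counts are partly set by the filter. Matn3, a matrilin of cartilage, was read at 0.0677 ± 0.0181 CPM (SD, n = 3, 5 counts in all) in SASCs, 2.93 ± 0.213 in PASCs and 1.77 ± 0.530 in EASCs. The fitted log2 difference of Matn3 from SASCs, a description for this reason, was 5.31 in PASCs (SE 0.454) and 4.60 in EASCs (SE 0.482). Like Acan, it was lower in EASCs than in PASCs, by less than 2-fold (-0.72, adjusted p = 0.0447). Matn4 was higher in EASCs (3.41, adjusted p = 1.17e-12) and PASCs (2.37, adjusted p = 6.71e-09), with 8 to 166 counts per sample. It overlaps Rbpjl of the opposite strand, which had 8 to 182 counts, so that reads of these genes cannot be told apart and the change of Matn4 is uncertain. Comp, cartilage oligomeric matrix protein, was at 0.138 ± 0.00963 CPM in SASCs, 0.737 ± 0.295 in PASCs and 1.09 ± 0.285 in EASCs.

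Col2a1, the collagen that defines cartilage and a target of Sox9, had 4 counts in all, in 1 EASCs sample, and 0 in the other 8 samples, and Col9a1, Matn1, Hapln1, Lect1 and Ucma had 0 counts in all samples. These genes, and Prg4 and Col11a1 of the same list, were named after their values were seen. Prg4, lubricin of the joint surface, was lower in both visceral groups (-2.68 for EASCs, adjusted p = 9.88e-18, and -1.58 for PASCs, adjusted p = 1.58e-13). Col11a1 was higher in both (2.74, adjusted p = 3.37e-22, and 2.48, adjusted p = 4.18e-21).

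Among 16 inputs of the BMP pathway 14 were tested, with 3 DEGs higher in EASCs, 2 higher in PASCs and none lower in either, beside 13.5% and 12.0% of all genes on the higher side. The medians were 0.30 and 0.15, beside 0.0061 and -0.0082 for all genes. All 3 were ligands. Bmp6 was read at 1.37 ± 0.318 CPM (SD, n = 3) in SASCs, 18.6 ± 0.844 in PASCs and 100.0 ± 1.71 in EASCs. The log2 fold change of Bmp6 was 6.23 in EASCs (SE 0.108, adjusted p = 2.60e-26) and 3.80 in PASCs (SE 0.123, adjusted p = 2.31e-20), and EASCs exceeded PASCs by 2.43 (adjusted p = 1.41e-19). Bmp4 had 7 counts in all of SASCs and passed the filter only through the visceral groups, so its differences of 3.62 in EASCs and 2.89 in PASCs on the log2 scale are a description. The counts of DEGs in this list are thus partly set by the filter. Bmp2 was higher in EASCs (1.28, adjusted p = 1.45e-04), and in PASCs its value of 0.79 passed the test below 2-fold (adjusted p = 0.0138). None of the receptors, SMAD proteins and Id target genes tested was a DEG against SASCs. The direct targets of BMP signals, named after their values were seen, had values on both sides of 0. In EASCs the log2 fold change was 0.25 for Id1 (adjusted p = 0.0196), -0.078 for Id2 (0.532), 0.36 for Id3 (2.08e-05), 0.72 for Smad6 (1.10e-07) and 1.00 for Smad7 (5.96e-12). In PASCs it was -0.62 for Id1 (adjusted p = 2.77e-06), -0.76 for Id2 (1.65e-06), 0.17 for Id3 (0.0246), 0.66 for Smad6 (5.09e-07) and 0.057 for Smad7 (0.542).

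**Figure D5:**
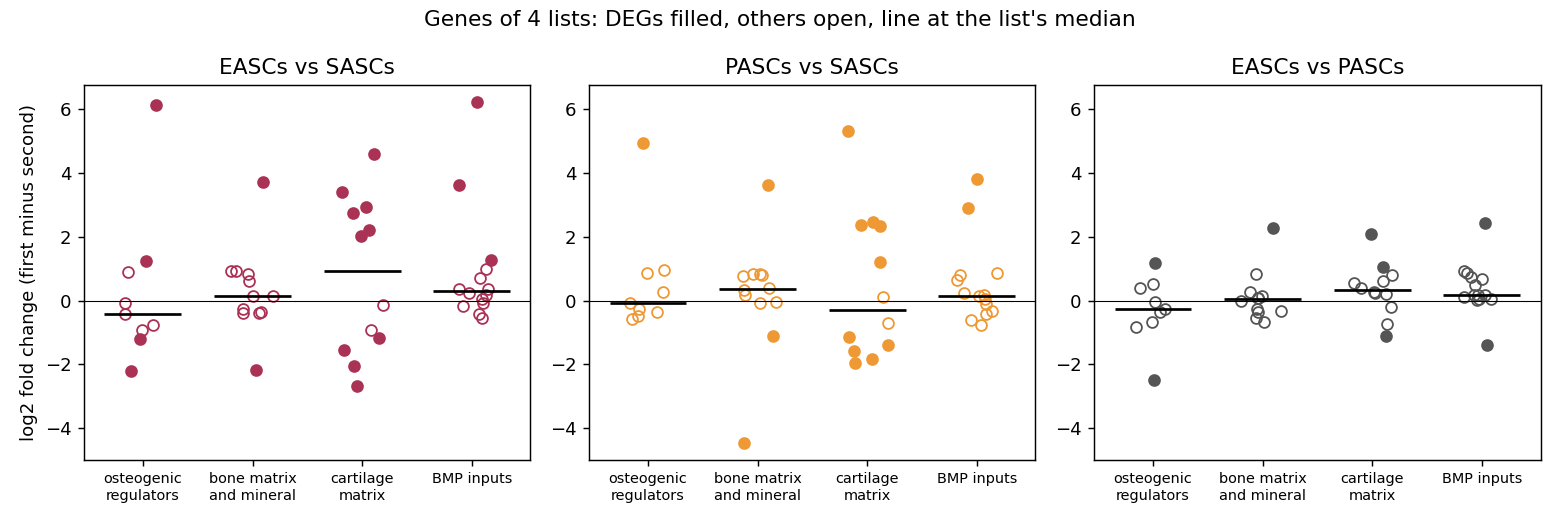
Log2 fold change (y axis, first group minus second) of each tested gene of 4 lists (x axis) in EASCs against SASCs, PASCs against SASCs and EASCs against PASCs. Filled points are DEGs, open points are other genes and lines are medians. The cartilage matrix genes lie on both sides of 0, and the DEGs among BMP inputs against SASCs all lie above it. Of the latter, Bmp4 passed the filter only through the visceral groups.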

How the data were processed

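RNA-seq of 9 samples, 3 each of SASCs, PASCs and EASCs, was analysed, with groups and replicate numbers taken from the titles in the labels. The authors aligned paired-end reads of 150 bp with TopHat and deposited whole-number counts per gene for 35362 genes, with gene lengths and coordinates, without normalization. The labels name rn5, the study's methods name rn6, and the contig names in the deposited table are those of rn6. The counting tool, its strand setting and its treatment of overlapping genes are not given in the sources used here. The counts of 18S and 28S ribosomal RNA came to 99.9 to 100.0% of those of the 45S gene that contains them, so a read in 2 overlapping genes appears under both. The labels give 6 replicates in each group, and 3 are in the data used here.

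Counts were fitted with edgeR 4.0.16 in R 4.3.3 (TMM, filterByExpr, quasi-likelihood test) in one model of the 3 groups, with Benjamini-Hochberg adjustment over 14770 genes in each comparison. The thresholds (2-fold, adjusted p-value 0.05) are those of the study. TMM factors were 0.740 to 1.23. FPKM was computed from TMM-scaled counts and the deposited lengths. Intervals of low counts cover only counting error. Simulated counts were used to check the fit. Alternatives were DESeq2 1.42.0, limma 3.58.1 on log2(FPKM + 1), 2 other filters (none, or 1 CPM in 3 samples), no TMM, removal of 7 ribosomal RNA genes, only the 2 groups compared, a replicate block, no fold threshold, and leaving out each sample.

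The 10 genes, the 4 pathway lists and the 7 marker lists were chosen with earlier results of these data known. Named from each pathway list were the 3 DEGs with the largest change against SASCs, and for Runx1, Runx2 and Sox9 the 3 genes with the highest Pearson r over 9 samples at a mean of at least 5 CPM. Other names are said to be chosen after their values were seen. Promoters came from RefSeq (GRCr8) and were used for their letters only.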

Additional observations from a re-analysis of the deposited data

How the results depend on the processing

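Of 303 values of single genes under the alternatives, 290 kept their direction and their side of an adjusted p of 0.05, whatever their fold, 10 lost that threshold and 3 turned, all 3 in EASCs against PASCs and none past the threshold. Runx1 went to -0.046 without TMM and ranged from -0.018 (without PASCs replicate 1) to 0.096 with one sample left out, and Sp7 from -0.0074 (without EASCs replicate 1) to 0.52. Against SASCs without TMM, Runx1 went from -0.40 to -0.79 in EASCs and from -0.43 to -0.75 in PASCs. Runx2 went from -0.56 to -0.98 and from -0.24 to -0.55, and Sox9 from 2.73 to 2.33 and from 2.27 to 1.96. The size of these differences thus depended on the scaling. With limma on log2(FPKM + 1), which compresses low genes, 1 gene was a DEG in EASCs and 1 in PASCs against SASCs, Sox9 in both, and 0 in EASCs against PASCs. Sox5 (-0.44 and -0.48) and Acan in EASCs against PASCs (-0.39) passed the adjusted p but fell under 2-fold. Sp7 (0.36 and 0.30) and Acan in PASCs against SASCs (0.59) also fell under 2-fold. Their p-values against SASCs support nothing, because both passed the filter only through the visceral groups. Acan in EASCs against SASCs then had an adjusted p of 0.0558. Runx2 missed the threshold with limma in PASCs against SASCs (0.0898) and in EASCs against PASCs (0.0641), and in the latter also without TMM (0.0699). In EASCs against PASCs the count rose to 3 with no fold threshold and to 2 with ribosomal RNA genes removed, where Alpl entered the test. With a filter of 1 CPM in 3 samples, which drops Sp7 from the test, 3 of 5 genes were DEGs in both comparisons with SASCs. Leaving out one sample at a time gave 4 to 5 DEGs in EASCs and 4 in PASCs against SASCs, and 1 to 2 in EASCs against PASCs. The counts against SASCs include Sp7 and Acan and are partly set by the filter. Alpl was tested in 9 of 18 fits, the one reported not among them, and was a DEG in EASCs against SASCs in 9 and against PASCs in 7, although with a filter it enters mainly through EASCs, where it is highest, so these calls support nothing. With the replicate block there were 4 DEGs in EASCs and 4 in PASCs against SASCs and 1 in EASCs against PASCs, and it changed no call. Correlations of the deviations of same-numbered samples were -0.0252 to 0.059. The numbers were not taken as pairs, but with so few samples such values cannot show whether same-numbered samples shared a rat or plate. Depth limits Alpl, Bglap, Ibsp and Sox6, which had at most 15 counts in a sample. The causes of the other changes named here were not tested.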
